A study of Sus scrofa with 8 samples.

Results

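Genes that move sodium and anions across the uterine epithelium were examined in pig endometrium, the tissue that lines the uterus, on day 14 of early pregnancy. The set holds 9 genes, chosen by their function: the epithelial sodium channel subunit genes SCNN1A, SCNN1B and SCNN1G, the cotransporter gene SLC12A2, the chloride channel gene CFTR, and the anion exchanger family genes SLC26A2, SLC26A4, SLC26A6 and SLC26A9. Of these, 8 were found by Entrez gene identifier among the 21064 genes of the deposited count tables, each with 1 transcript. SLC26A9 was not matched there and is not analysed here.

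The 2 groups were 4 pregnant gilts and 4 non-pregnant controls, all prepuberal German Landrace gilts brought to ovulation with 750 IU of PMSG and, 72 h later, 500 IU of hCG. Pregnant gilts received Pietrain semen 24 h and 36 h after hCG, whereas controls received cell-depleted semen supernatant of the same boar. Pregnant tissue was cut from the reddened attachment zones and control tissue from comparable places, without the muscle layer, so pregnancy and the choice of zone cannot be told apart. RNA of 3 places along 1 horn was pooled per animal, and each library stands for a different animal. In such bulk tissue, fewer cells of a type and less RNA per cell cannot be told apart.

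The epithelial sodium channel, ENaC, is built of an alpha (SCNN1A), a beta (SCNN1B) and a gamma (SCNN1G) subunit, and takes up sodium, with water following, at the apical face of epithelial cells. Anion secretion runs the other way: SLC12A2 loads the cell with chloride at the basolateral face, CFTR releases chloride and bicarbonate at the apical face, and SLC26 proteins exchange one anion for another. The sodium pump at the basolateral face drives both. In the uterus these routes set the volume and composition of the luminal fluid in which the conceptus lies before it attaches.

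Total counts per library ran from 28035007 to 41016150. A principal component analysis of 500 high-variance transcripts parted the groups on its first axis (76.9% of variance), where control replicate 4 lay nearest to the pregnant libraries. The test throughout was the quasi-likelihood test of edgeR, adjusted by Benjamini-Hochberg over 18783 transcripts, and 21.3% of them passed the adjusted p of 0.05 used as the threshold. Of those, 2111 were higher and 1898 lower in pregnant animals, against 1661 and 3284 when counts were scaled to library totals alone, which moved the median log2 change by −0.13. Counted with 1 transcript per gene, 21.6% of 15913 genes passed, 11.6% higher and 10.1% lower in pregnant animals, and the groups did not overlap for 25.9%. Levels are given as CPM, reads scaled to library size and composition, with means ± SD over 4 animals in each group. Log2 changes set pregnant over control animals and carry their SE.

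Of the 8 genes, 1 rose and 2 fell. SLC26A4 rose 25.2-fold in pregnant endometrium, where controls held only a few reads each. SCNN1B and SCNN1G fell, 3.14-fold and 4.24-fold lower in pregnant animals, whereas SCNN1A, SLC12A2, CFTR, SLC26A2 and SLC26A6 did not pass the test. The 3 of 8 that passed stand beside 21.6% of all genes. The groups did not overlap for these 3 genes, and overlapped for the other 5.

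**Figure D1:**
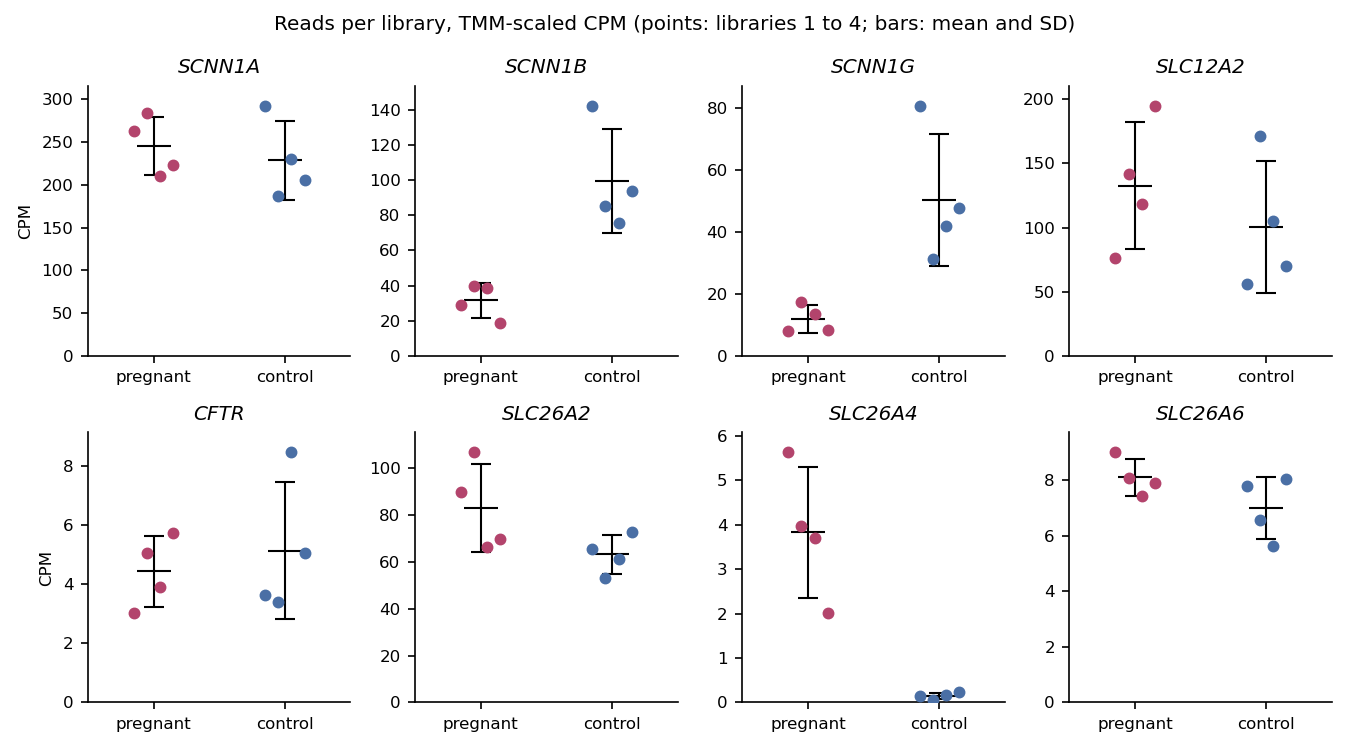
CPM (linear axes from 0) of the 8 genes in the 4 pregnant libraries (left in each panel) and the 4 control libraries (right); points are libraries, bars the mean and SD. The pregnant values of SCNN1B and SCNN1G lie below all control values, those of SLC26A4 above all of them, and the other 5 genes overlap.

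SCNN1A encodes the alpha subunit, without which the channel passes little current (Entrez gene 396608, Sscrofa10.2 chromosome 5, 66749071 to 66773948, plus strand, 13 exons). It stood at 262, 284, 210.3 and 224 CPM in pregnant replicates 1 to 4, against 292, 187, 230.0 and 205 CPM in control replicates 1 to 4. All pregnant values lay within the control range, which was wider at both ends. The log2 difference was 0.10 ± 0.16 with a 95% interval from −0.25 to 0.45 (edgeR adjusted p = 0.699), and it was −0.02 when counts were scaled to library totals alone.

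SCNN1B, the beta subunit gene (Entrez gene 100627971, Sscrofa10.2 chromosome 10, 271533 to 337921, plus strand, 13 exons), had 29.2, 40.0, 38.4 and 18.8 CPM in pregnant replicates 1 to 4. Control replicates 1 to 4 had 142, 85.1, 75.7 and 94.0 CPM. Every pregnant library lay below every control library, and the highest pregnant value, 40.0 CPM, was well under the lowest control value, 75.7 CPM. The log2 change was −1.65 ± 0.26 (95% interval −2.22 to −1.08, edgeR adjusted p = 0.00124).

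SCNN1G, the gamma subunit gene (Entrez gene 100522244, Sscrofa10.2 chromosome 3, 23444808 to 23480162, minus strand, 13 exons), had 8.18, 17.4, 13.7 and 8.39 CPM in pregnant replicates 1 to 4. Control replicates 1 to 4 had 80.8, 31.2, 42.0 and 48.0 CPM. Again no pregnant library reached the control range, and control replicate 1 was the highest, as it was for SCNN1A and SCNN1B. The log2 change was −2.08 ± 0.33 (95% interval −2.81 to −1.35, edgeR adjusted p = 0.00136), and −1.74 without control replicate 1. Of its 3207 exonic bases, 109 (3.40%) are shared with an unnamed gene on the opposite strand (Entrez gene 100627718), and the library kit did not mark the strand. That gene had 9.59 ± 0.759 CPM in pregnant and 11.4 ± 0.546 CPM in control endometrium, with a log2 difference of −0.24 ± 0.13 (edgeR adjusted p = 0.231).

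The deposited annotation places SCNN1B and SCNN1G on different chromosomes. In the RefSeq gene table of the later assembly Sscrofa11.1 they neighbour each other, with 0 genes starting between them. Which placement is right was not tested.

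Levels of different genes were compared per length, as CPM per kb of exon. By that measure the alpha subunit made up 88.9%, 85.2%, 82.4% and 90.6% of the summed ENaC messenger RNA in pregnant replicates 1 to 4, against 60.8%, 65.1%, 69.8% and 63.0% in control replicates 1 to 4. The beta share was 6.94% to 13.7% in pregnant and 21.0% to 27.1% in control libraries. The gamma share was 3.04% ± 0.941 in pregnant and 10.0% ± 1.86 in control animals. The channel's messenger RNA pool was thus mostly alpha in both groups, and more so in pregnant animals. For each gamma transcript per length there were 21.2 to 44.2 alpha transcripts in pregnant libraries and 4.98 to 8.25 in control libraries. Beta exceeded gamma in every library, 2.82-fold to 4.50-fold in pregnant and 2.21-fold to 3.43-fold in control animals, and there the ranges of the groups overlapped. These shares restate the single-gene values and were not tested, and they do not depend on how libraries were scaled.

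**Figure D2:**
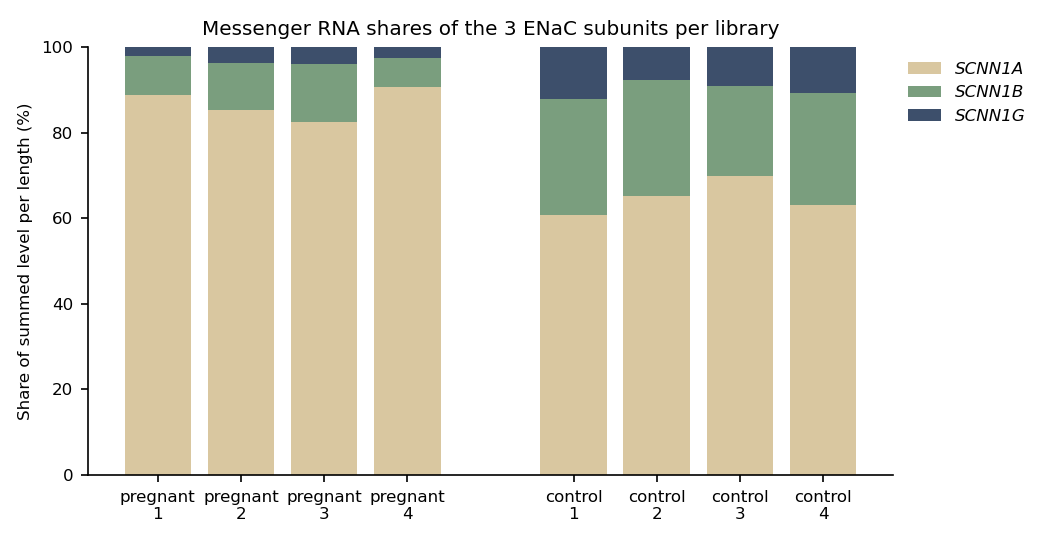
Share of each ENaC subunit gene in the summed level per length of the 3 (percent, stacked to 100), 1 bar per library, the 4 pregnant libraries left of the 4 control libraries. SCNN1A takes 82.4% to 90.6% of a pregnant bar and 60.8% to 69.8% of a control bar.

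SLC12A2 encodes the sodium, potassium and chloride cotransporter that loads secretory cells with chloride (Entrez gene 100516960, Sscrofa10.2 chromosome 2, 136368247 to 136458359, plus strand, 27 exons). Pregnant replicates 1 to 4 had 75.9, 142, 118 and 195 CPM, against 56.3, 171, 105 and 69.8 CPM in control replicates 1 to 4. Animals of the same group differed up to 2.56-fold in pregnant and 3.04-fold in control endometrium. The log2 difference of 0.40 ± 0.37 did not pass (95% interval −0.43 to 1.23, edgeR adjusted p = 0.482). Without control replicate 2, the highest control, it was 0.79. A gene on the opposite strand, LOC100516424, shares 103 bases (2.26%) of its exons, and stood at 6.67 ± 1.52 CPM in pregnant and 6.18 ± 1.46 CPM in control animals.

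CFTR, the cAMP-gated anion channel gene (Entrez gene 403154, Sscrofa10.2 chromosome 18, 30396464 to 30566679, minus strand, 26 exons), was lowly expressed. It had 3.04, 5.07, 3.90 and 5.74 CPM in pregnant replicates 1 to 4, against 3.63, 3.41, 8.46 and 5.07 CPM in control replicates 1 to 4. The control range enclosed most of the pregnant values. The log2 difference was −0.21 ± 0.32 (95% interval −0.91 to 0.50, edgeR adjusted p = 0.683), and it was 0.14 without control replicate 3, the highest library. These values rest on 86 to 194 reads per pregnant library and 107 to 255 per control library. The data do not tell apart the differences inside that interval, which holds both signs.

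SLC26A4 encodes pendrin, an exchanger of chloride for bicarbonate or iodide known from the thyroid, the inner ear, the kidney and inflamed airway epithelium (Entrez gene 100622822, Sscrofa10.2 chromosome 9, 118120561 to 118182777, plus strand, 21 exons). Pregnant replicates 1 to 4 held 159, 152, 112 and 66 reads of it. Control replicates 1 to 4 held 4, 2, 5 and 8 reads. In CPM these were 5.63, 3.97, 3.71 and 2.01 in pregnant libraries and 0.136, 0.0599, 0.166 and 0.229 in control libraries. The lowest pregnant library thus lay far above the highest control library, though pregnant animals themselves differed 2.79-fold. The log2 change was 4.65 ± 0.45 (95% interval 3.66 to 5.65, edgeR adjusted p = 6.82e-05), and lay between 4.4 and 4.96 when single libraries were left out. The control group's 19 reads make the size of the fold less certain than its direction.

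SLC26A2 encodes a sulfate transporter that feeds the sulfation of proteoglycans and mucins (Entrez gene 100515885, Sscrofa10.2 chromosome 2, 157922636 to 157946528, minus strand, 10 exons). Its CPM were 89.7, 107, 66.6 and 69.7 in pregnant replicates 1 to 4, against 65.6, 53.3, 61.2 and 73.0 in control replicates 1 to 4. Control replicate 4 lay above the lower 2 pregnant libraries. The log2 difference of 0.39 ± 0.17 had an unadjusted p of 0.0386 by edgeR and did not pass after adjustment over all transcripts (edgeR adjusted p = 0.123, 95% interval 0.02 to 0.76).

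SLC26A6, an apical exchanger of chloride for bicarbonate and oxalate (Entrez gene 497236, Sscrofa10.2 chromosome 13, 34583149 to 34594184, minus strand, 21 exons), had the lowest coefficient of variation of the 8 genes in pregnant animals, though not in controls. Pregnant replicates 1 to 4 had 8.99, 8.07, 7.41 and 7.90 CPM, against 7.80, 6.56, 5.64 and 8.02 CPM in control replicates 1 to 4. That coefficient was 8.14% in pregnant and 15.9% in control animals, where SLC26A2 had 13.0%. The log2 difference was 0.21 ± 0.17 (95% interval −0.17 to 0.58, edgeR adjusted p = 0.422).

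**Figure D3:**
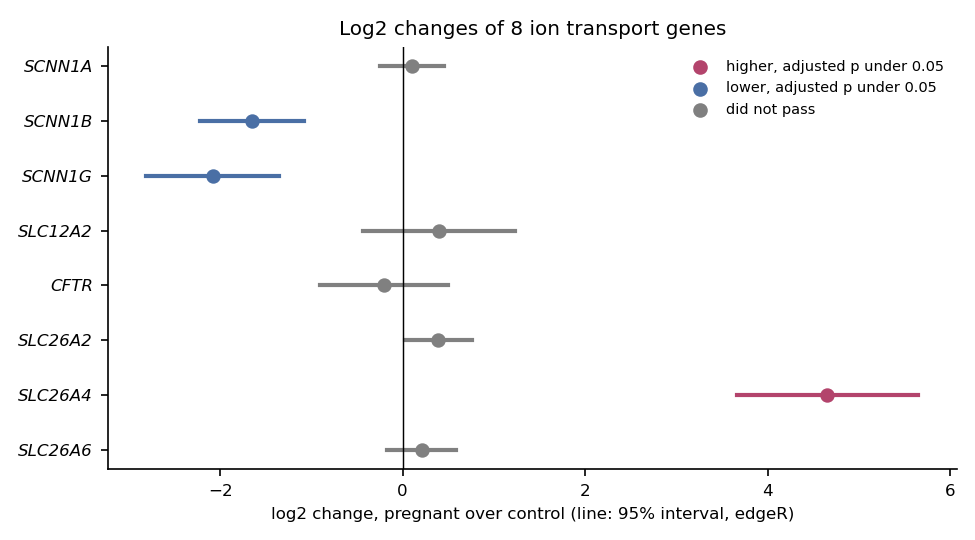
Log2 change, pregnant over control, of each gene (point) with its 95% interval (line) from the edgeR fit over all transcripts; colours mark genes that passed an adjusted p of 0.05. The intervals of SLC26A4 (3.66 to 5.65), SCNN1B (−2.22 to −1.08) and SCNN1G (−2.81 to −1.35) lie away from 0.

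Per length, the order of the 8 genes in pregnant endometrium was SCNN1A (105 ± 14.6 CPM per kb), SLC26A2 (35.8 ± 8.08), SLC12A2 (29.2 ± 10.9), SCNN1B (12.4 ± 3.83), SCNN1G (3.71 ± 1.38), SLC26A6 (3.56 ± 0.290), SLC26A4 (1.44 ± 0.555) and CFTR (1.01 ± 0.272). The ranges of SLC26A2 and SLC12A2 overlapped there, as did those of SCNN1G and SLC26A6, and of SLC26A4 and CFTR. In control endometrium the order was SCNN1A (98.1 ± 19.8 CPM per kb), SCNN1B (38.9 ± 11.6), SLC26A2 (27.2 ± 3.54), SLC12A2 (22.1 ± 11.3), SCNN1G (15.7 ± 6.67), SLC26A6 (3.08 ± 0.490), CFTR (1.17 ± 0.530) and SLC26A4 (0.0554 ± 0.0264). The neighbours from SCNN1B down to SCNN1G overlapped in range, and the others did not. SCNN1A stood above 96.0% of all tested genes in pregnant and 95.7% in control animals. SLC26A4 stood above 18.9% of them in pregnant and 0.22% in control animals. With 2 to 8 reads per control library, it was among the tested genes only through its pregnant libraries. The filter removed genes low in both groups, so its control rank is partly set by the filter.

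**Figure D4:**
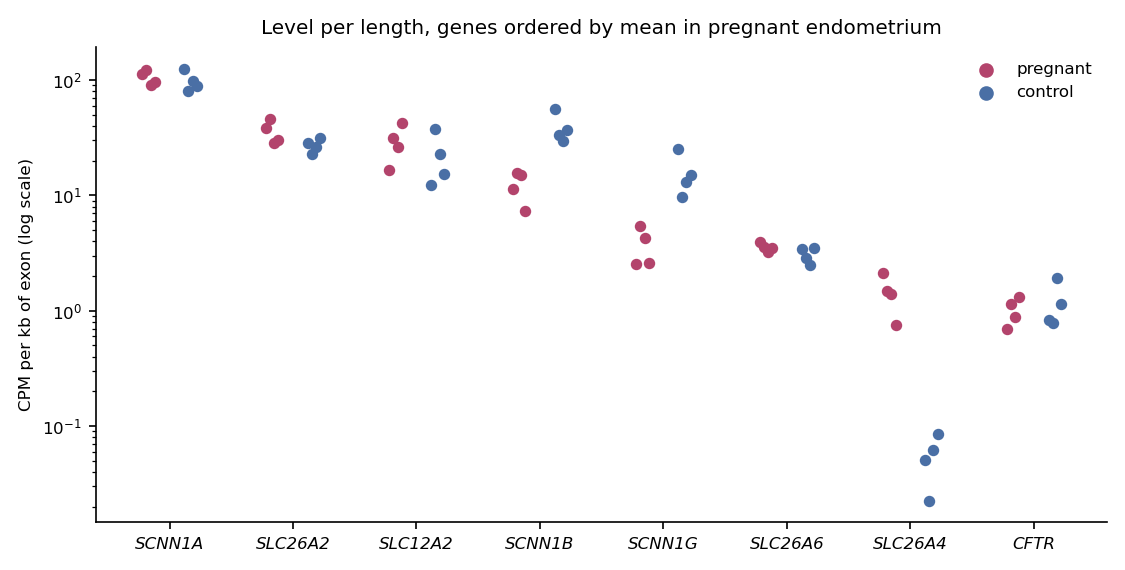
Level per length (CPM per kb of exon, log axis) of each gene in every library, pregnant left of control, genes ordered by their mean in pregnant endometrium. SCNN1A is highest in both groups, and SLC26A4 reaches the level of CFTR in pregnant libraries but lies below every other gene in controls.

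Other genes of the same ion routes were taken from 9 lists with 137 genes, of which 111 were matched and 98 tested. Of these, 16 rose and 20 fell, which is 16.3% and 20.4%, against 11.6% and 10.1% of all genes. The lists were written with earlier results of these data known, so the higher shares cannot be read as a finding about these routes. The median log2 change of the 98 genes was −0.04, and that of all genes −0.02. Without any 1 library, 14 to 17 rose and 15 to 20 fell. Across the alternatives tried, 27 of the 36 calls passed in all of them.

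**Figure D5:**
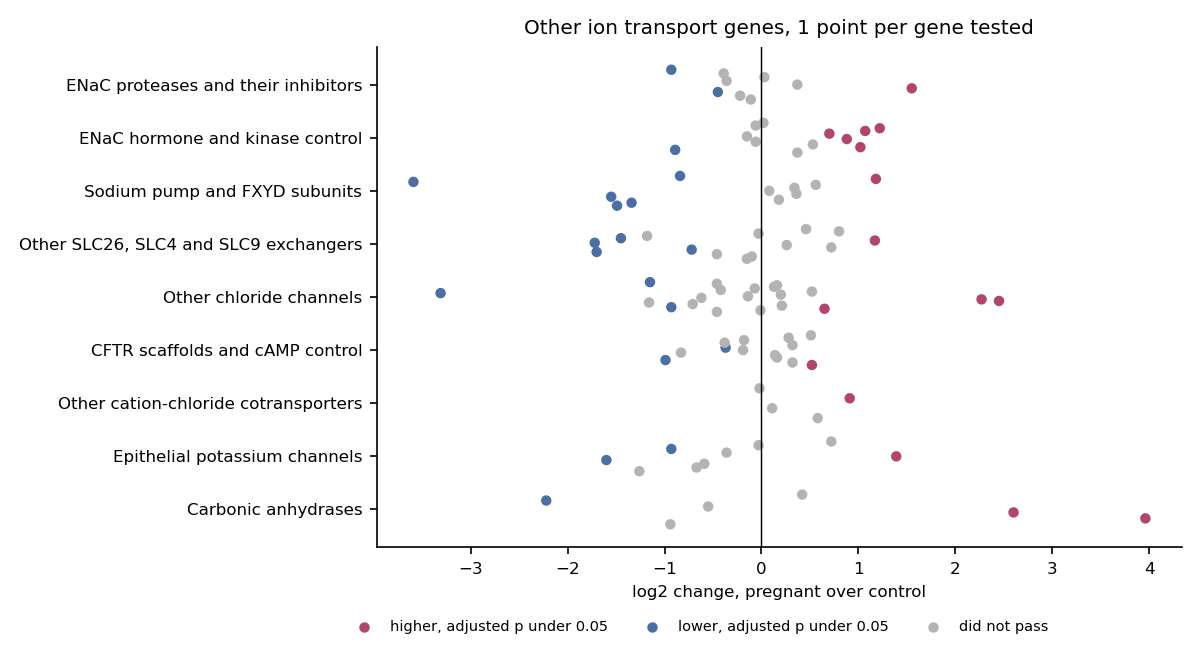
Log2 change, pregnant over control, of the 98 other ion transport genes tested, 1 point per gene, by list; coloured points passed an adjusted p of 0.05. In the sodium pump list 5 points fell and 1 rose; in the hormone and kinase list 5 rose and 1 fell.

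The sodium pump and its FXYD regulators held 5 genes that fell and 1 that rose, of 11 tested. FXYD4, a pump regulator known from the rodent kidney and colon as induced by corticosteroids, had 2.19, 2.09, 3.14 and 2.23 CPM in pregnant replicates 1 to 4. Control replicates 1 to 4 had 43.7, 25.7, 31.2 and 15.8 CPM of it. No libraries of the groups overlapped, and its log2 change was −3.59 ± 0.31 (edgeR adjusted p = 3.13e-05). FXYD5, which also binds the pump, rose by 1.18 ± 0.19 on the log2 scale.

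Of the others that fell, the beta subunit gene ATP1B1 (−1.55 ± 0.25) and FXYD7 (−0.84 ± 0.21) were chosen for naming after their values were seen. Leaving out pregnant replicate 3 ended the call of FXYD7 (edgeR adjusted p = 0.0514, with 0.00337 to 0.0514 over all settings tried), and 3 genes of the list then fell. Without control replicate 4, 2 genes of the list rose. The beta subunit gene ATP1B3 was at 149 ± 9.75 CPM in pregnant and 141 ± 12.0 CPM in control animals, and also was chosen after its values were seen.

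Genes that place ENaC under hormone and kinase control held 5 that rose and 1 that fell, of 12 tested. WNK1, a kinase that sets the activity of chloride cotransporters, rose to 359 ± 25.6 CPM in pregnant animals, against 154 ± 32.0 CPM in controls (log2 change 1.22 ± 0.15). TSC22D3, a corticosteroid-induced gene that raises ENaC activity, rose by 0.70 ± 0.15 and the deubiquitinase gene USP2 by 1.07 ± 0.24. Chosen after their values were seen, the others were SGK1, the corticosteroid-induced kinase that keeps ENaC at the membrane (0.88 ± 0.21), the WNK-degrading adaptor gene KLHL3 (1.02 ± 0.23) and HSD11B2, which inactivates cortisol (−0.89 ± 0.27). The call of HSD11B2 ended when pregnant replicate 2 or 4, or control replicate 1 or 2, was left out (edgeR adjusted p = 0.0681 to 0.105, with 0.0107 to 0.105 over all settings tried). The mineralocorticoid receptor gene NR3C2 had 4.26 ± 0.729 CPM in pregnant and 2.96 ± 0.856 CPM in control animals, and was also chosen after its values were seen (edgeR adjusted p = 0.168).

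Among 9 genes of proteases that cleave ENaC and of their inhibitors, 1 rose and 2 fell. SERPINE2, a serine protease inhibitor, rose by 1.55 ± 0.31 (edgeR adjusted p = 0.00501). PRSS8, the membrane-anchored protease prostasin, had 74.5 ± 6.85 CPM in pregnant and 102 ± 18.9 CPM in control animals (log2 change −0.45 ± 0.14, edgeR adjusted p = 0.0466). Its call ended when any single library except control replicate 3 was left out (0.0554 to 0.129, with 0.0062 to 0.129 over all settings tried). With all libraries kept, it also ended in edgeR with RLE scaling (0.0578), no filter (0.0651) or 1 transcript per gene (0.052). It ended with limma voom as well (0.0505), and PRSS8 passed in 5 of the 16 alternatives. TMPRSS4 had a log2 change of −0.93 ± 0.28, and its call ended when pregnant replicate 2, 3 or 4, or control replicate 1, 3 or 4, was left out (0.058 to 0.0997, with 0.011 to 0.0997 over all settings tried). The list held 2 genes that rose with DESeq2, limma voom or upper quartile scaling, and also without pregnant replicate 4 or control replicate 1.

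Other members of the anion and proton exchanger families held 1 gene that rose and 4 that fell, of 14 tested. SLC4A8, a sodium-driven exchanger of chloride for bicarbonate, fell to 2.73 ± 0.794 CPM in pregnant animals, against 9.0 ± 1.28 CPM in controls (log2 change −1.72 ± 0.24). The sodium-proton exchanger gene SLC9A2 fell by 1.45 ± 0.24 on the log2 scale. The other genes that fell, named after their values were seen, were SLC4A11 (−1.70 ± 0.43) and SLC4A2 (−0.72 ± 0.15). The call of SLC4A11 ended without pregnant replicate 2 and without control replicate 1 (edgeR adjusted p = 0.0534 and 0.0651, with 0.000136 to 0.0651 over all settings tried). Without pregnant replicate 1, 2 genes of the list rose. Within the SLC26 family, SLC26A7 (log2 difference −0.10, at 4.02 ± 0.0595 CPM in pregnant and 4.31 ± 0.693 CPM in control animals) and SLC26A11 did not pass, and SLC26A3, SLC26A5 and SLC26A8 had too few reads to be tested.

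Genes listed with the chloride channels other than CFTR, not all of them channels themselves, changed both ways. Of 20 tested, 3 rose and 3 fell. CLCN4, an exchanger of chloride for protons in intracellular membranes, had 5.17, 3.76, 2.55 and 4.06 CPM in pregnant replicates 1 to 4, against 49.3, 40.3, 45.7 and 18.5 CPM in control replicates 1 to 4. Its log2 change was −3.31 ± 0.32 (edgeR adjusted p = 7.03e-05), and control replicate 4 lay between the other controls and the pregnant libraries. TTYH3 (−1.15 ± 0.18) and ANO9 (−0.93 ± 0.19), members of families with anion channels or lipid scramblases, also fell. The genes that rose, named after their values were seen, were CLCA1 (2.45 ± 0.53), CLCA4 (2.27 ± 0.52) and the scramblase gene ANO6 (0.65 ± 0.14). CLCA1 had 1.73 ± 0.65 CPM in pregnant and 0.31 ± 0.26 CPM in control animals. CLCA4 had 1.55 ± 1.19 CPM in pregnant and 0.32 ± 0.077 CPM in control animals. Each had only 41 reads in the control group, which limits the precision of these changes. The log2 change of CLCA1 was 3.21 without control replicate 4, and that of CLCA4 1.6 without pregnant replicate 3.

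Of 13 genes of CFTR scaffolds and cAMP control, 1 rose and 2 fell. ADCY6, an adenylyl cyclase, which forms cAMP, fell to 115 ± 9.92 CPM in pregnant animals, against 228 ± 40.8 CPM in controls (log2 change −0.99 ± 0.14, edgeR adjusted p = 0.000769). ADCY3 (0.52 ± 0.14) and the protein kinase A subunit gene PRKAR1A (−0.37 ± 0.10) also passed. The call of ADCY3 ended without pregnant replicate 2 or 4 and without control replicate 2 or 3 (edgeR adjusted p = 0.0512 to 0.0646, with 0.00243 to 0.0841 over all settings tried). It also ended with library totals in place of TMM (edgeR adjusted p = 0.0841). The call of PRKAR1A ended without pregnant replicate 1, 2 or 4 and without control replicate 2 or 3 (0.0602 to 0.0915, with 0.00358 to 0.0915 over all settings tried).

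Of 9 epithelial potassium channel genes, 1 rose and 2 fell. KCNK1 rose to 215 ± 24.3 CPM in pregnant animals, against 82.3 ± 18.8 CPM in controls (log2 change 1.39 ± 0.17, edgeR adjusted p = 0.000304). KCNJ15 (−1.60 ± 0.24) and KCNK6 (−0.93 ± 0.21) fell. Of 6 carbonic anhydrase genes, whose enzymes supply bicarbonate, 2 rose and 1 fell. CA3 had 5.68 ± 1.79 CPM in pregnant and 0.355 ± 0.236 CPM in control animals (log2 change 3.96 ± 0.48). The membrane-anchored CA4 rose by 2.60 ± 0.42, and CA8, which lacks the enzyme activity, fell by 2.22 ± 0.47. Among 4 other cation-chloride cotransporter genes SLC12A8 passed (0.91 ± 0.25). It did not pass when pregnant replicate 1, 2 or 4, or control replicate 1, was left out (edgeR adjusted p = 0.0506 to 0.0643, with 0.00482 to 0.0643 over all settings tried). With library totals in place of TMM it did not pass either (edgeR adjusted p = 0.0532).

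The named genes most like each changed gene over the 8 libraries were found by the root mean square distance between centred log2 CPM, among 11908 genes. Nearest to SLC26A4 were EMB, encoding the cell adhesion protein embigin (0.502 log2 units), and the interleukin decoy receptor gene IL1R2 (0.572), where the median gene lay 2.18 away. Nearest to SCNN1B were the transcription factor gene ETV4 (0.244) and ENTPD8, an enzyme that splits extracellular nucleotides (0.265), with a median of 0.964. Nearest to SCNN1G were the fatty acid amide hydrolase gene FAAH (0.386) and C15H2orf54 (0.415), with a median of 1.17. With 2 well separated groups, this measure mostly ranks genes by the size of their group difference.

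Markers of several cell types moved with the groups. Of 11 tested epithelial markers 5 fell and 6 did not pass, and their summed level was 989 to 1328 CPM in pregnant and 2154 to 3154 CPM in control libraries. KRT8 (−2.10 ± 0.19), KRT18 (−1.58 ± 0.18) and ESRP1 (−1.01 ± 0.15) had the smallest p. EPCAM, a general epithelial surface marker chosen after its values were seen, had 116 ± 20.6 CPM in pregnant and 144 ± 43.8 CPM in control animals (log2 difference −0.32 ± 0.21, edgeR adjusted p = 0.315). No epithelial marker was at 0 in either group. Whether the epithelial share of the tissue had a part in the lower SCNN1B and SCNN1G was not tested.

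Of 5 tested gland markers CXCL14 rose (1.66 ± 0.28) and the other 4 did not pass. Without control replicate 1, 2 rose. With DESeq2, with library totals and without control replicate 4, 1 fell. The gland markers had sums of 172 to 203 CPM in pregnant and 166 to 458 CPM in control libraries and SPINK1 at 0 reads in all libraries. Of 8 ciliated cell markers edgeR, DESeq2 and limma voom each passed 0, and 0 had an unadjusted edgeR p under 0.05, with 37.2 to 76.7 CPM in pregnant and 53.1 to 84.9 CPM in control libraries. Of 12 leukocyte markers 9 rose and 3 did not pass. Those that rose included AIF1 (3.20 ± 0.26), PTPRC (2.05 ± 0.24) and CD2 (3.26 ± 0.42). Their sum was 478 to 672 CPM in pregnant and 181 to 288 CPM in control libraries, and the part of leukocytes in the SLC26A4 values was not tested.

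Stromal markers held 3 that rose and 2 that fell of 10, THY1 (3.16 ± 0.25), HAND2 (0.98 ± 0.17) and DPT (−1.34 ± 0.31) among them. Their median log2 change was 0.10, while their sum was 16930 to 24690 CPM in pregnant and 25600 to 30850 CPM in control libraries. Most of that sum came from 2 collagen genes, named after their values were seen. COL3A1, which fell, had 9338 ± 1830 CPM in pregnant and 14900 ± 1327 CPM in control animals, and COL1A2, which did not pass, had 7450 ± 1059 CPM in pregnant and 8719 ± 659 CPM in control animals. Without pregnant replicate 2, control replicate 3 or control replicate 4, 1 stromal marker fell. Smooth muscle markers held 5 of 8 that fell, led by ACTG2 (−1.59 ± 0.27), CNN1 (−1.37 ± 0.25) and SYNM (−0.66 ± 0.14), with 606 to 892 CPM in pregnant and 881 to 1310 CPM in control libraries. Of 9 vascular endothelial markers CLEC14A (0.75 ± 0.12) and KDR (0.77 ± 0.17) rose, and 4 did without control replicate 4, with 1130 to 1515 CPM in pregnant and 951 to 1408 CPM in control libraries. Conceptus markers summed to 1.22 to 1.88 CPM in pregnant and 1.03 to 3.02 CPM in control libraries, with 2 of 9 matched genes testable. Of these edgeR and limma voom passed 0, DESeq2 passed 1, and 1 had an unadjusted edgeR p under 0.05. Without control replicate 4, 1 of them was lower in pregnant animals by edgeR. The sum joins markers of opposite direction, and those named here were chosen after their values were seen. NANOG had 38 reads in the pregnant and 134 in the control group. IFNG had 26 and 4 reads, and IL1B2 had 14 and 2. The groups did not overlap in CPM for IFNG and IL1B2, which had too few reads to be tested. Among all tested genes the groups did not overlap for 25.9%. Which cells the IFNG and IL1B2 reads came from was not tested.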

How the data were processed

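RNA-seq libraries of 4 pregnant and 4 control gilts were analysed, grouped by their titles. The deposited tables hold whole-number read counts for 24139 transcripts, with totals that differ between libraries, so they were taken as not normalized. Exon positions came from the annotation files of the authors, on Sscrofa10.2. CASAVA 1.6, TopHat 1.4, Cufflinks 1.3 and DESeq are listed, with no role, in the processing notes of the submitters. How reads were counted is not given in the sources used here.

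Symbols came from the RefSeq gene table of Sscrofa11.1, for names and neighbours only. It matched 16270 of 21064 genes by Entrez identifier and 103 by accession. Genes absent from the count tables under their symbol, such as SLC26A9, are not analysed here.

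The quasi-likelihood test of edgeR 4.0.16 (R 4.3.3) was run on the counts after TMM scaling, with low transcripts removed by filterByExpr (minimum count 10), robust dispersion and no covariate. Its p-values were adjusted by Benjamini-Hochberg over 18783 transcripts. All 8 genes passed the filter. SE are those implied by the F statistic, and intervals use its degrees of freedom. CPM divide counts by the TMM-scaled library size, and levels per length divide them by the exonic bases of the transcript. PCR reads are not independent molecules. Alternatives used DESeq2 1.42.0 and limma voom 3.58.1, other scalings, no filter, 1 transcript per gene, a replicate block and each library left out. The procedure was run on counts simulated from its own fit, which does not test how well its model suits these data. The highest transcript stood for each gene.

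Named were the 9 genes, up to 3 genes of each list with the smallest p among those that passed, and the 2 most like each gene that passed, with others marked as chosen later. The genes, lists and tests were chosen with earlier results of these data known. Values of some genes counted in the lists are not reported here.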

Additional observations from a re-analysis of the deposited data

Results flagged for a closer look

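In 132 groups of 4 animals tested for a single value far from the other 3, 7 were found, and chance gives about 1 in 20. None concerned the 8 ion transport genes. Pregnant replicate 3 stood apart for CXCL14 (16.4 CPM, the others 7.86 to 8.73) and for the pump regulator gene FXYD4 (3.14 CPM, the others 2.09 to 2.23). Control replicate 4 stood apart for ADCY3 (78.8 CPM, the others 54.5 to 58.1), SERPINE2 (11.4 CPM, the others 4.82 to 5.58) and IL1R2 (0.945 CPM, the others 0.136 to 0.266). Pregnant replicate 1 was high for IL1R2 (11.1 CPM, the others 7.51 to 7.92), and pregnant replicate 4 low for ENTPD8 (0.275 CPM, the others 0.425 to 0.444).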

How the results depend on the processing

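Under all 16 alternatives SCNN1B, SCNN1G and SLC26A4 passed in the same direction, with adjusted p of at most 0.00605, 0.0171 and 0.001. The other 5 genes passed in none. The log2 difference turned sign for SCNN1A with library totals in place of TMM (−0.02) and for CFTR without control replicate 3 (0.14). Leaving out single libraries gave −1.78 to −1.41 for SCNN1B, −2.32 to −1.74 for SCNN1G, 4.4 to 4.96 for SLC26A4, 0.02 to 0.26 for SCNN1A, 0.16 to 0.79 for SLC12A2, −0.35 to 0.14 for CFTR, 0.25 to 0.49 for SLC26A2 and 0.12 to 0.28 for SLC26A6. Library totals moved the median log2 change of all transcripts by −0.13 and gave 1661 higher and 3284 lower transcripts, against 2111 and 1898 with TMM. Without pregnant replicate 2, 1265 were lower, and the range over left-out libraries was 1265 to 2017. The level of each gene per length moved by less than its SD with library totals or with the exon union of the reference annotation. Between pregnant and control libraries of the same replicate number, the correlations of deviations were −0.0932 to 0.186. So few values cannot show whether the animals were paired. The replicate block gave 3883 calls, against 4009, and changed no call among the 8 genes. Of the ion transport genes in the lists it lost TMPRSS4 and PRKAR1A, and it lost both stromal markers that fell, COL3A1 and DPT (adjusted p = 0.0612 for DPT). Low counts in controls limit the precision for SLC26A4.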
